A study of Mus musculus with 3 samples.

Results

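The mitochondrial ribosomal proteins are the protein part of the ribosome that works inside mitochondria, and their genes were followed through the loss of Oct3/4 in mouse embryonic stem (ES) cells. The members are all genes whose symbol in the array annotation is Mrpl or Mrps followed by a number. They came to 76 genes, with 156 probe sets that name 1 gene only. Of the 45037 probe sets with a value on every array, dim ones were filtered out, which left 12717 named genes. The cells were mouse ES cells in which Pou5f1, which encodes Oct3/4, can be deleted conditionally, and total RNA was hybridised to arrays on day 0, on day 1 and on day 2 after the start of the deletion. Each day had 1 array, so there was no replicate and no test, and every value describes these 3 arrays. All 3 groups share the conditional allele, and neither day 1 nor day 2 has a culture that kept Pou5f1. Loss of Oct3/4 and time in culture therefore cannot be told apart. Mrpl30 and Mrpl53 were covered only by probe sets that name several genes and were not analysed here.

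The mitochondrial ribosome translates the few messages encoded by mitochondrial DNA, all of them for subunits of the respiratory chain and the ATP synthase. Its ribosomal RNAs come from mitochondrial DNA, but all its proteins are encoded in the nucleus, made in the cytosol and imported. Many of them descend from proteins of the bacterial ribosome, while others exist only in mitochondria and have replaced or covered lost ribosomal RNA. The proteins named Mrpl belong to the large subunit, which joins amino acids, and those named Mrps mostly to the small subunit, which reads the message. ES cells make much use of glycolysis, and their use of mitochondria changes as they differentiate.

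The knockout and the cell type were read from the same arrays. The signal of Pou5f1 went from 2400 (day 0) through 40.8 (day 1) to 15.5 (day 2). In order of the days, the summed signal of 10 ES cell markers was 121490, 73380 and 25185, and that of 11 trophectoderm markers was 11071, 17161 and 62072. The keratins Krt8 (18358) and Krt18 (24610) were the largest parts of the trophectoderm sum at day 2. Of the 10 trophectoderm markers bright enough to be kept, 9 were higher at day 2 than at day 0, and Eomes (381, 844 and 295) was lower. Of 16 fibroblast markers with a probe set, a check on feeder cells, 9 had a mean signal below the cutoff for dim probe sets given below, Col1a1 and Col3a1 among them, and the summed signal of the 16, taking the brightest probe set of each gene on each array as in all these sums, stayed between 1358 and 1405. Its parts moved in opposite directions, as Thy1, with signals of 400, 275 and 89.3, was at −1.65 at day 2 while the other 6 markers above the cutoff were higher than at day 0. These marker levels moved with the day, and their part in the differences below was not tested. Fewer cells of a type and less RNA per cell cannot be told apart in such bulk samples.

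The signal of a probe set is a brightness in arbitrary units. Differences are log2 differences after a constant of 55.9 was added to every signal, and a gene is represented by its brightest probe set. All 76 genes passed the filter on dim probe sets through at least 1 probe set, 148 probe sets in all. The dimmest member had a mean signal of 702, which is 12.6 times the constant, so the constant had little weight here. In order of the days, the members had a median signal of 2995, 2690 and 2760, while that of all genes was 486, 498 and 499.

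Genes of the mitochondrial ribosome were mostly slightly lower at day 2, and the differences were small. Against day 0, 55 of the 76 genes were lower and 21 were higher, with a median of −0.12 and quartiles of −0.34 and 0.01. Over all genes the median was 0.05, the quartiles were −0.27 and 0.37, and 45.9% were lower. No member reached a 2-fold difference in either direction, where 5.25% of all genes were higher and 5.65% lower by that much. At 1.5-fold, 5 members were lower (6.58%) and 0 were higher, against 11.8% of all genes lower and 14.6% higher. The count lower was 9 (11.8% of members, with 13.2% of all genes) when arrays were scaled to equal medians of cytosolic ribosomal protein genes, and 3 (3.95%, with 11.4% of all genes) when a gene was the mean of its probe sets. Among the 4996 genes with a mean signal between those of the dimmest and the brightest member, 10.4% were lower and 12.5% higher at 1.5-fold, and 4.92% were lower and 4.98% higher at 2-fold. The members thus spread less than genes at large and were displaced downwards. Their interquartile range was 0.34, against 0.64 for all genes and 0.58 for genes in the same signal range. Most related lists described below were about as narrow or narrower. It was 0.19 for cytosolic ribosomal proteins, 0.20 for mitochondrial translation factors and 0.28 for mitoribosome assembly. Other symbols had 0.32, aminoacyl-tRNA synthetases 0.34 and mitochondrial DNA maintenance 0.37, while regulators had 0.59.

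The only error the file allows is the disagreement between probe sets of the same gene. Its pooled SD for day 2 against day 0 was 0.34 over 5906 genes with several probe sets and 0.27 over the 38 members with several. By more than the first value, 19 members were lower and 3 were higher, where 20.7% of all genes were lower and 26.6% higher. This error reflects probe effects and holds nothing of the spread from culture to culture or array to array.

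**Figure D1:**
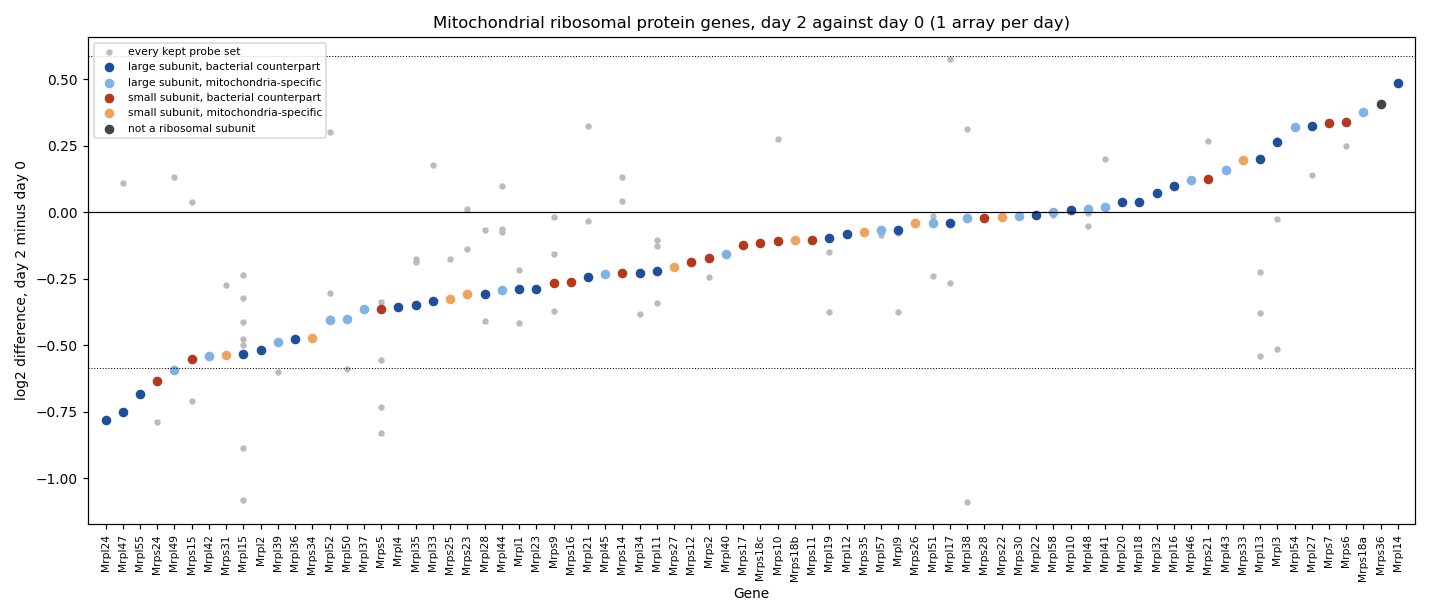
Difference between day 2 and day 0 (vertical axis, log2) for each of the 76 genes (horizontal axis), ordered by value. Coloured points are the brightest probe set of a gene by structural class, grey points are all kept probe sets, and dotted lines mark 1.5-fold; 5 coloured points lie below the lower line and 0 above the upper.

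The 5 members past 1.5-fold at day 2 were Mrpl24, Mrpl47, Mrpl55, Mrps24 and Mrpl49. Mrpl24, a large subunit protein near the exit of the tunnel through which the new chain leaves, had signals of 5988, 3992 and 3465, in order of the days as in all such values here. It was the lowest member, at −0.78 or 1.72-fold lower, and most of that (−0.58) was present at day 1. Mrpl24 has a single probe set, so no other probe checks it. Mrpl47, another protein of the tunnel exit, had signals of 3133, 2363 and 1838 and was at −0.75, with similar steps of −0.40 and −0.35. Its other kept probe set, with signals near background, gave 0.11.

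Mrpl55, a large subunit protein, had signals of 1533, 1414 and 934. It was at −0.68, nearly all of it (−0.57) between day 1 and day 2. Mrps24, the small subunit protein that corresponds to a bacterial protein at the entry of the message, had signals of 3214, 2249 and 2051. It was at −0.63, and here the larger step came first, −0.50 at day 1, with a second probe set at −0.79. Mrpl49, a mitochondria-specific large subunit protein, had signals of 2343, 1753 and 1535 and was at −0.59. Its second probe set gave 0.13, so the 2 probe sets of Mrpl49 disagreed in sign, and the mean over them was −0.23. As such a mean Mrpl47 was at −0.32, so neither of these genes passed 1.5-fold by that rule. Without the dimmer probe set, whose signal was 85.7, 73.8 and 97.0, Mrpl47 rests on 1 probe set.

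Just short of 1.5-fold were Mrps15, Mrpl42, Mrps31 and Mrpl15. Mrps15, a small subunit protein with a bacterial counterpart, had signals of 3523, 2926 and 2387 (−0.55), and its other probe sets gave −0.71 and 0.04. Mrpl42, specific to mitochondria, had signals of 6813, 6302 and 4673 (−0.54), and Mrps31, a mitochondria-specific protein of the small subunit, 2349, 1613 and 1600 (−0.54). The 2 differ in timing, with −0.11 for Mrpl42 and −0.53 for Mrps31 already at day 1. Mrpl15, a core protein of the large subunit, was the member with most probe sets. Between day 1 and day 2 all 8 of its probe sets were lower, from −0.996 to −0.365 with a median of −0.534, while between day 0 and day 1 only 2 of the 8 were lower and the median was 0.07. Its brightest probe set had signals of 10360, 10382 and 7139.

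Among the 21 members above day 0, Mrpl14 was highest. Mrpl14, a large subunit protein on the face that meets the small subunit, had signals of 1172, 1261 and 1663. It was at 0.49, or 1.40-fold higher, and 0.38 of this came between day 1 and day 2. Mrpl14 is also the docking site of Malsu1, a factor that keeps the subunits apart during assembly, which had signals of 1897, 2165 and 2129 (0.16). Mrps36 was next, with signals of 1272, 1967 and 1705 (0.41). It carries a ribosomal name but is now known as a subunit of the 2-oxoglutarate dehydrogenase complex of the citric acid cycle. It was the only member at least 1.5-fold higher in any comparison, at 0.61 for day 1 against day 0.

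Mrps18a had signals of 2179, 2136 and 2841 (0.37), Mrps6 of 2068, 2693 and 2629 (0.34) and Mrps7 of 1991, 1979 and 2524 (0.33). Mrps6 and Mrps7 are small subunit proteins with bacterial counterparts. Mrps6 reached its level at day 1, and its other probe set also gave a higher value there (0.50). For Mrps7 and Mrps18a the first step was close to 0 (−0.01 and −0.03) and the second was 0.34 and 0.40. Mrpl27, a large subunit protein close to the catalytic centre, had signals of 3669, 3890 and 4601 (0.32). Mrpl54, specific to mitochondria, was at 0.32 (1211, 1251 and 1526), and Mrpl3, a core protein of the large subunit, at 0.26 (2477, 2648 and 2986). The 4 kept probe sets of Mrpl3 ranged from −0.51 to 0.27, the outer 2 of them with signals near the constant. Its second bright probe set, with signals of 1688, 1300 and 1656, was at −0.03, and at −0.36 for day 1 against day 0.

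**Figure D2:**
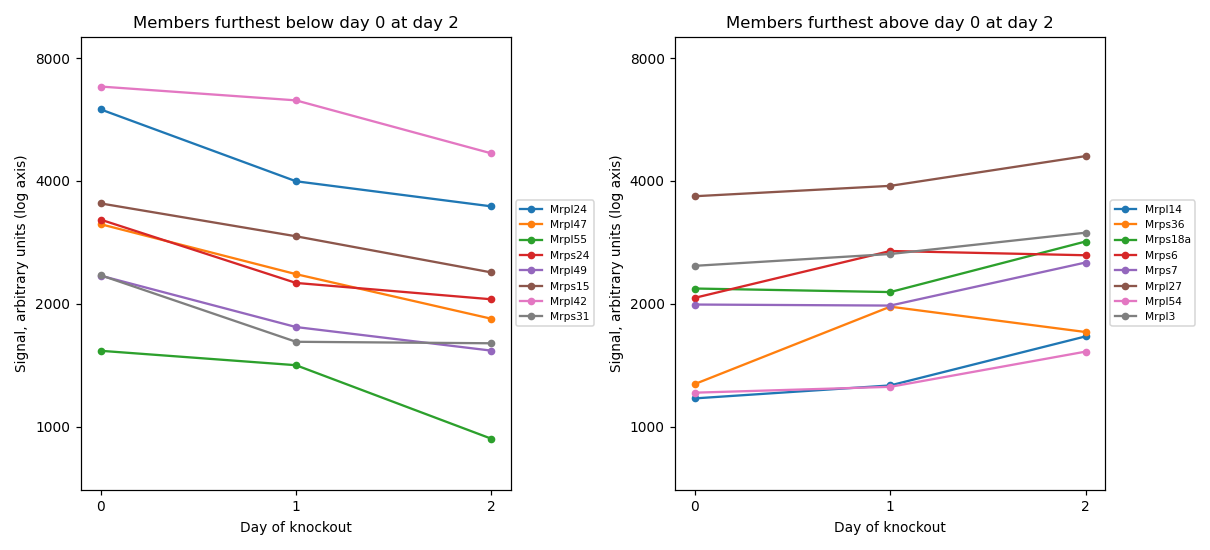
Signal on a log axis against the day of the knockout for the 8 members furthest below day 0 at day 2 (left) and the 8 furthest above (right), each point being 1 array. Most of the decrease of Mrpl42 and Mrpl55 falls between day 1 and day 2, and most of that of Mrps31 and Mrps24 before day 1. Mrps36 and Mrps6 are highest at day 1.

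The paralogues Mrps18a, Mrps18b and Mrps18c all correspond to 1 bacterial protein. Mrps18a, which structures place in the large subunit, was at 0.37. Mrps18b, a small subunit protein with signals of 5423, 4723 and 5034, was at −0.11, and Mrps18c, also in the small subunit, with 3875, 3851 and 3574, was at −0.12. In the classes below only Mrps18c was counted as having the bacterial counterpart. Each has a single probe set, and whether they differ was not tested.

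Each structural class had a median below 0 at day 2, and differences between the classes were not tested. Of 29 large subunit proteins with a bacterial counterpart 20 were lower at day 2, with a median of −0.22. At least 1.5-fold lower were 3 of the 29 (10.3%), against 11.8% of all genes. Of 20 mitochondria-specific proteins of the large subunit 13 were lower, with a median of −0.05 and 1 (5%) past 1.5-fold. That median was −0.11 with equal cytosolic medians and −0.09 with probe set means. Of 16 small subunit proteins with a bacterial counterpart 13 were lower, with a median of −0.15 and 1 (6.25%) past 1.5-fold. Of 10 mitochondria-specific ones 9 were lower, with a median of −0.16 and 0 past 1.5-fold. Only Mrps33 (0.19) was higher among these 10. By subunit, 33 of 49 large subunit and 22 of 26 small subunit genes were lower, with medians of −0.10 and −0.15. Mrps18a and Mrps30 were counted with the large subunit, where structures place them, and Mrps36 with neither.

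The next genes were named for their roles after the values had been seen. The stalk that recruits translation factors is built by Mrpl10 (0.01), Mrpl11 (−0.22) and Mrpl12 (−0.08). Mrpl45, which ties the ribosome to the inner membrane, was at −0.23 with signals of 6130, 5465 and 5212. Mrpl58, a hydrolase that frees stalled chains, was at 0.00 (2960, 3192 and 2964). Around the tunnel exit Mrpl22 (−0.01) and Mrpl17 (−0.04) stood near 0 beside Mrpl24 and Mrpl47, and Mrpl23 was at −0.29. Mrps12, a protein of the decoding centre, was at −0.19 with signals of 3944, 4054 and 3460.

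At day 1, when Pou5f1 had already dropped below the constant, the members differed little from day 0. Of the 76 genes 50 were lower and 26 higher, with a median of −0.09 against 0.04 for all genes. After quantile normalisation the members' median was −0.05 and that of all genes 0.02. Mrps34, a mitochondria-specific small subunit protein, was at least 1.5-fold lower and Mrps36 at least 1.5-fold higher, where 7.29% of all genes were lower and 9.62% higher by this rule, and 5.24% and 6.08% of genes in the same signal range. No member passed 2-fold, where 2.59% of all genes were lower and 2.40% higher (1.90% and 1.78% in the signal range). Mrps34 and Mrps36 each rest on 1 probe set, and a further probe set that names both Mrps34 and Nme3 was not analysed. Mrps34 had signals of 4372, 2608 and 3131, which is −0.73 at day 1 and then 0.26 upwards. It was followed by Mrpl24 (−0.58), Mrps31 (−0.53), Mrps24 (−0.50) and Mrpl33 (−0.50, with signals of 853, 588 and 666). The second probe set of Mrpl33, near the constant, gave 0.42, and the mean over both was −0.04. After Mrps36 the highest were Mrps6 (0.37), Mrps21 (0.25), Mrpl18 (0.22) and Mrpl41 (0.18).

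With the arrays scaled to equal medians of cytosolic ribosomal protein genes, day 1 had 5 members past 1.5-fold downwards and 0 upwards, Mrps36 no longer among them. These 5 are 6.58% of the members, and 9.11% of all genes were lower and 7.33% higher under this scaling. Of all genes past 1.5-fold, 56.9% were higher in the main scaling and 44.6% in this one, and the all-gene median shifted by −0.09. The median of the members became −0.18, still 0.14 below that of all genes.

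Between day 1 and day 2 again 50 members were lower and 26 higher, with a median of −0.08 against 0.00 for all genes. With equal cytosolic medians these were −0.04 and 0.04. Neither 1.5-fold nor 2-fold was reached by any member, where 8.79% of all genes were lower and 7.10% higher at 1.5-fold, and 2.65% and 2.09% at 2-fold. In the signal range these shares were 6.08% and 5.38% at 1.5-fold, and 2.34% and 1.72% at 2-fold. The lowest were Mrpl55 (−0.57), Mrpl15 (−0.54), Mrpl52 (−0.45), Mrps23 (−0.44) and Mrpl42 (−0.43). Mrpl52, specific to the mitochondrial large subunit, had signals of 3602, 3722 and 2704, and Mrps23, of the small subunit, 2784, 3047 and 2237. Both were slightly higher at day 1 than at day 0. A second bright probe set of Mrps23 (1810, 1923 and 1824) gave −0.07 for this step and 0.01 for day 2 against day 0. The highest were Mrps18a (0.40), Mrpl14 (0.38), Mrpl16 (0.36), Mrps7 (0.34) and Mrpl54 (0.28), of which Mrpl16 had signals of 2185, 1812 and 2342 and so only regained its level.

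**Figure D3:**
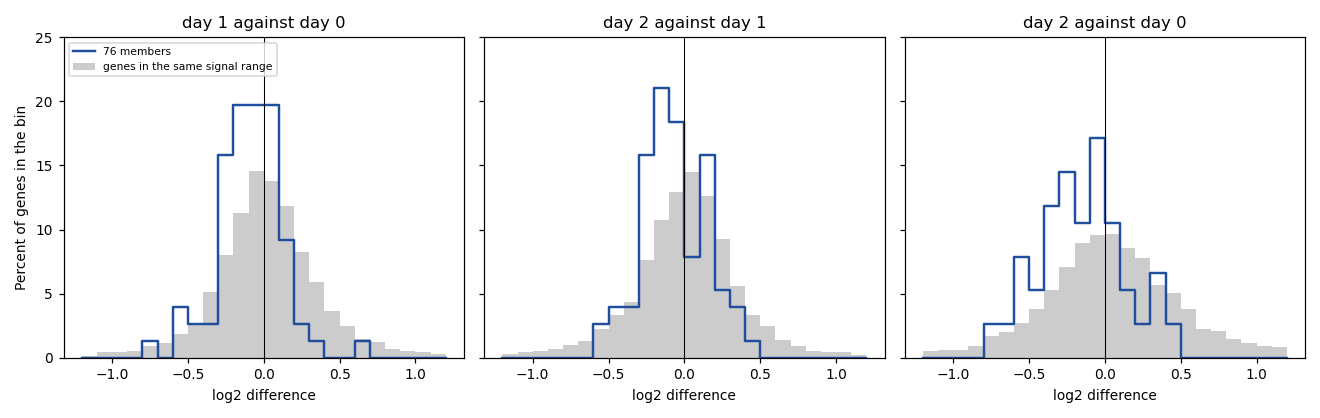
Share of genes (vertical axis, percent) in bins of log2 difference that are 0.1 wide, for the 3 comparisons; the blue line is the 76 members and the grey bars the 4996 genes in the same signal range, those beyond 1.2 not drawn. The members lie in a narrower range, with medians of −0.09, −0.08 and −0.12 from left to right.

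Taking both steps together, 31 of 76 members (40.8%) were lower in each step and 7 (9.21%) higher in each, while 19 were lower and then higher and 19 higher and then lower. Of all genes 21.4% were lower in each step and 26.9% higher in each. At day 2, 44 members (57.9%) had their lowest signal of the 3 days and 15 (19.7%) their highest, against 35.1% and 39.3% of all genes. Both steps share the day 1 array, so an error on that array enters them with opposite signs.

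Where several probe sets measured a member, they often disagreed at this size of difference. Of the 38 members with several kept probe sets, all probe sets were below day 0 at day 2 for 18, all were above for 4, and the signs were mixed for 16. In some mixed cases the probe set of opposite sign was dim, as for Mrpl21, Mrpl33, Mrpl47 and Mrpl52 (mean signals of 105, 70.0, 85.5 and 64.7). In others it was far brighter, as for Mrpl44 (907) and Mrps23 (1852). Mrpl13, of the large subunit, was the clearest case besides Mrpl49, with 0.20 from its brightest probe set (3609, 3996 and 4157) and −0.54 from the next (1872, 1488 and 1271), and the mean over its 4 probe sets was −0.23. The 3 probe sets of Mrpl38 ran from −1.09 to 0.31, but the brightest, with signals of 2382, 2122 and 2343, was at −0.02, and the others had mean signals of 165 and 209 against 2282. Mrpl17 ran from −0.27 to 0.57, and its brightest probe set, with signals of 6624, 7292 and 6440, was at −0.04. The others had mean signals of 71.6 and 66.9, near the constant.

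Other genes of mitochondrial gene expression gave values of the same order at day 2, and most cytosolic ribosomal protein genes, far brighter ones, were slightly above 0. Of 4 measured mitoribosomal proteins under other symbols, Ptcd3 was at −0.26, Gadd45gip1 at −0.16, Dap3 at 0.13 and Chchd1 at 0.13, with a median of −0.01 that was 0.13 with probe set means. Of 27 measured genes for mitoribosome assembly and ribosomal RNA modification, 18 were lower, and the median was −0.18. Past 1.5-fold 2 were lower (7.41%) and 0 higher, where 11.8% of all genes were lower and 14.6% higher. The lowest were Rbfa (−0.81, signals of 1051, 704 and 576), which matures the small subunit, the pseudouridine synthase gene Trub2 (−0.69), the assembly GTPase gene Mtg2 (−0.50) and Ngrn (−0.47). Of 10 measured mitochondrial translation factors 8 were lower and 0 past 1.5-fold, with a median of −0.10 (−0.15 with equal cytosolic medians, −0.06 with probe set means). The initiation factor gene Mtif3 (0.53) and Guf1 (−0.47) were furthest from 0, followed by the recycling factor gene Mrrf (−0.29) and the elongation factor gene Tufm (−0.27).

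Of 19 measured mitochondrial aminoacyl-tRNA synthetase and related genes 13 were lower, with a median of −0.10 (−0.15 with equal cytosolic medians). Yars2, the tyrosine enzyme, was the 1 past 1.5-fold (5.26%, where 11.8% of all genes were lower), at −0.60 (994, 559 and 637). Next from 0 were Mars2 (0.44), Lars2 (0.43) and Ears2 (−0.42). Mars2, the methionine enzyme, had low signals of 120, 71.1 and 181. Of 20 genes of mitochondrial DNA maintenance and transcription 18 were lower, with a median of −0.24, which was −0.13 without the probe sets that can match several transcripts (suffix _x_at, _s_at, _a_at). Past 1.5-fold downwards were 10% of this list, the exonuclease gene Mgme1 (−0.73, signals of 1260, 1112 and 739) and Polg2 (−0.66). Polg2 encodes an accessory subunit of the mitochondrial DNA polymerase. Next came Trmt10c (−0.56) and Lrpprc (−0.55). Of 45 cytosolic genes named Rpl or Rps with a number, 10 were lower and 35 higher, with a median of 0.10. Past 1.5-fold 1 was lower (2.22%) and 0 were higher. Furthest from 0 were Rpl39l (−0.99, and −1.06 at day 1), Rpl12 (−0.49), Rps2 (0.40) and Rps19bp1 (−0.35). By a split made after the values had been seen, 8 of the 9 cytosolic genes in the members' signal range were lower (median −0.20), and 32 of the 34 brighter ones were higher (median 0.14). The brighter ones had mean signals from 12991 to 44207, and the highest signal on each array was 44382, 52453 and 53589. The part of probe quality and of the top of the signal scale in this split was not tested. These 45 include Rps19bp1, which encodes a binding protein and no subunit. The cytosolic median was close to 0 after quantile normalisation and −0.10 once the same probe sets were dropped, which left 23 of these genes, so its direction depends on the processing.

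**Figure D4:**
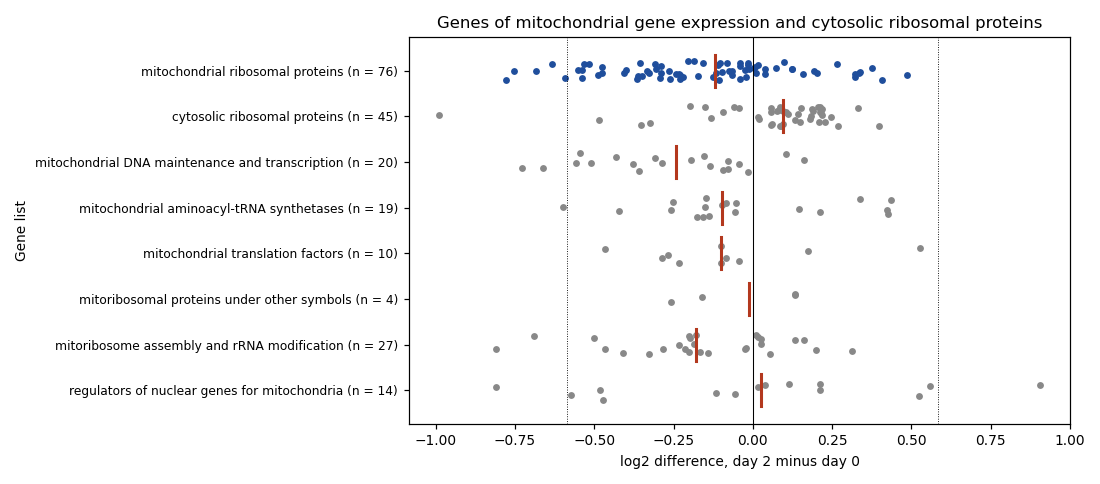
Log2 difference between day 2 and day 0 (horizontal axis) for every measured gene of each list (rows), with the median as a red bar and 1.5-fold as dotted lines; vertical scatter within a row has no meaning. The mitochondrial ribosomal proteins have a median of −0.12, and the cytosolic genes 0.10.

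Of 14 measured regulators of nuclear genes for mitochondria, 6 were lower and 8 higher at day 2, with a median of 0.03 that was −0.03 with equal cytosolic medians and −0.09 without the probe sets of those suffixes. Furthest from 0 were Tfeb (0.91, signals of 563, 942 and 1105), Max (−0.81, signals of 516, 729 and 271), Sp1 (−0.57) and Myc (0.56). Myc, a regulator of ribosome genes, had signals of 1165, 341 and 1745, so its signal was lowest at day 1, at −1.62. The factors for which promoter sites were searched were Nrf1 (0.04, signals of 1123, 1048 and 1155), Yy1 (0.21, signals of 6404, 6985 and 7421) and Gabpa (−0.48, signals of 2777, 2201 and 1974).

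Promoters of nuclear genes for mitochondria are known for sites of the factors NRF1, GABPA (an ETS factor) and YY1. For 67 of the 76 members RefSeq sequences of mouse build GRCm38.p6 were at hand, from 250 bases before to 50 bases after the start, and both strands were searched. The NRF1 site was in 12 of 67 members (17.9%) and in 5.19% of all 27025 genes. The ETS site, CCGGAAG, was in 25 members (37.3%) and 9.93% of all genes, and the YY1 site in 5 members (7.46%) and 0.755% of all genes. The E-box, CACGTG, was in 5 members (7.46%) and 8.09% of all genes, and the CRE, TGACGTCA, in 2 (2.99%) and 2.03%. The NRF1 site is the palindromic consensus that appears in capitals in the window of Mrpl39 below. The member windows had a median GC content of 58.7% and all windows 52.7%, and its part in these shares was not tested.

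Members with the ETS site had a median difference of −0.04 at day 2 (from −0.41 to 0.37), and those without it −0.25 (from −0.78 to 0.49). This was noticed after the values had been seen and has no test. The shorter ETS core CGGAAG, which the longer site contains, was in 38 members (56.7%) and 18.8% of all genes, and members with it had a median of −0.07 and those without it −0.23. Members with the NRF1 site had a median of −0.07 and those without −0.19. With the YY1 site (5 members) the median was lower, at −0.21, than without it, at −0.14. For the E-box (5 members) these medians were −0.36 and −0.14, and for the CRE (2 members) −0.25 and −0.16. None of these differences was tested. The windows below show the bases before the start for the 2 lowest members and for a lower and a higher member that hold a site, with capitals for motif letters.
Mrpl24 (chr3:87919294-87919543, plus strand, no motif): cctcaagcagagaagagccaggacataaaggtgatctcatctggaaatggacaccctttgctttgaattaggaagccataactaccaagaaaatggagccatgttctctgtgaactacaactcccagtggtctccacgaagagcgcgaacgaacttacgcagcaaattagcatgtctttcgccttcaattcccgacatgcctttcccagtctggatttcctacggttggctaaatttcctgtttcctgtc
Mrpl47 (chr3:32736756-32737005, minus strand, none of the 5 motifs but an ETS core 31 bases before the start): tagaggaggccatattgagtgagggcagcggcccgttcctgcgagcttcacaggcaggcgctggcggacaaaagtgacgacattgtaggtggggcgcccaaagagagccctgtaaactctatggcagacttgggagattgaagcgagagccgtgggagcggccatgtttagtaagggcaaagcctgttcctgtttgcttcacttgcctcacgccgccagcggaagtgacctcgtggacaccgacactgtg
Mrpl39 (chr16:84735245-84735494, minus strand, NRF1 site): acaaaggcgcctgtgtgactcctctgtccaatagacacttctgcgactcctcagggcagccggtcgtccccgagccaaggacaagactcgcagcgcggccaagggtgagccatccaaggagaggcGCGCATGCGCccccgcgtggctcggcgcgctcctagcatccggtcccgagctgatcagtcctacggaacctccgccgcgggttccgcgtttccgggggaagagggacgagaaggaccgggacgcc
Mrps18a (chr17:46110754-46111003, plus strand, ETS site; a YY1 site lies 12 bases after the start, outside these bases): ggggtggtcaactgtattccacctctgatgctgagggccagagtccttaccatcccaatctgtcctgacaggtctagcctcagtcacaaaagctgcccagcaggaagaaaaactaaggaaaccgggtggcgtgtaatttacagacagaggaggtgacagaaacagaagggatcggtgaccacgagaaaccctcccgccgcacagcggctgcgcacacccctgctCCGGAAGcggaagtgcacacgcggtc

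Mrpl39, a mitochondria-specific large subunit protein whose window holds the NRF1 site 125 bases before the start, had signals of 7384, 6116 and 5252 (−0.49). Mrps18a, with the ETS site 26 bases before the start, was at 0.37. Members with and without a site thus lay on both sides of 0, and a matching motif is no proof that a factor binds there.

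Many of these genes start head to head with another gene, the 2 being copied in opposite directions from a shared stretch. Within 1000 bases, 25 of 67 members (37.3%) had such a partner, as did 12.3% of all genes in the same table, with a median distance of 131 bases for the members. A measured partner was at hand for 23 members, and 1 partner passed 1.5-fold at day 2, downwards, where 11.8% of all genes were lower and 14.6% higher. Both genes were lower in 12 cases, both higher in 3, and the signs differed in 8. Taken alone, these members had a median of −0.10 and the partners −0.11, and whether the signs go together was not tested. Partners near the constant, such as Ighmbp2 (71.8, 112 and 71.5) and 4930473A02Rik (64.1, 34.9 and 68.7), are counted too. Mrpl46 and Mrps11, a large and a small subunit gene whose starts lie 42 bases apart, are counted from either side. Mrpl46 was at 0.12 (2009, 1941 and 2191) and Mrps11 at −0.10 (1452, 1436 and 1348).

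Mrpl14 and Tmem63b, a membrane channel gene 131 bases away, were both higher, at 0.49 and 0.51. Their timing differed, as Tmem63b, with signals of 523, 743 and 767, had 0.47 at day 1, where Mrpl14 had 0.10. Mrpl43, specific to the mitochondrial large subunit, shares its start region with Twnk, the helicase of mitochondrial DNA, and they were at 0.16 and −0.08. Mrps12 lies opposite Sars2, the mitochondrial serine enzyme, at −0.19 and −0.26. Mrpl47 lies opposite Ndufb5, a subunit of respiratory complex I, at −0.75 and −0.21. Mrpl49 and Fau, whose product includes a cytosolic ribosomal protein, differed in sign, at −0.59 and 0.19. So did Mrpl27 and the endonuclease subunit gene Eme1, at 0.32 and −0.57. Mrps27 and Ptcd2 were both lower, at −0.21 and −0.71, and Ptcd2, with signals of 1671, 1562 and 1003, was the partner past 1.5-fold.
The bases between the 2 starts are shown for 3 of these pairs, on the strand of the member and with ETS sites in capitals.
Mrpl14 with Tmem63b (chr17:45686219-45686348, plus strand): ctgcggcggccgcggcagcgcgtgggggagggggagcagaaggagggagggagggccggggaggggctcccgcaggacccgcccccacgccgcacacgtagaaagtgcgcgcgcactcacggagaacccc
Mrpl43 with Twnk (chr19:45006443-45006557, minus strand): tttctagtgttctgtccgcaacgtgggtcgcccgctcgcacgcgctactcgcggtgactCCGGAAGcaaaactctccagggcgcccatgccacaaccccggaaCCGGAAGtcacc
Mrps11 with Mrpl46 (chr7:78783090-78783130, plus strand): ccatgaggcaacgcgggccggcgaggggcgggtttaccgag

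The stretch between Mrpl43 and Twnk holds 2 ETS sites, 56 and 12 bases before the start of Mrpl43, and the bases shown for the other pairs hold none of the 5 motifs. Beyond them, Mrpl14 has an NRF1 site 5 bases after its start and Mrps11 a YY1 site 110 bases before its start.

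**Figure D5:**
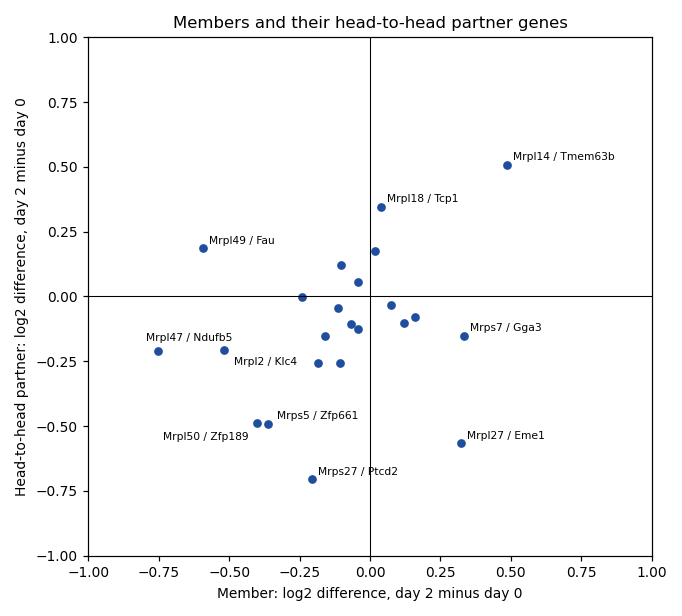
Log2 difference between day 2 and day 0 for a member (horizontal axis) and its head-to-head partner (vertical axis), 1 point per member with a measured partner, labelled where either exceeds 0.3. Of the 23 points 12 lie in the lower left and 3 in the upper right.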

How the data were processed

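Total RNA of 1 culture per day was hybridised to Affymetrix mouse arrays at day 0, day 1 and day 2. Each deposited value is the intensity of a probe set on a linear scale. MAS5 is named in the submitters' processing notes; its version and target value are not given in the sources used here. The 64 rows with a day 2 value only were left out, leaving 45037. The arrays were brought to the same 2% trimmed mean. The 40th percentile of pooled signals, 55.9, was added before log2 and was the minimum mean signal for a probe set, which kept 26925. Genes were named from the platform annotation, 34945 probe sets having 1 gene, 932 several and 9160 none, and 34741 matched GRCm38.p6 by Entrez identifier. The brightest kept probe set represents a gene, 12717 in all. With 1 array per day no test was possible, and precision is limited by the number of arrays.

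Members were counted at 1.5-fold and 2-fold and read against all genes. Members, lists, structural classes, motifs and thresholds were chosen with earlier results of these data known. Named members are the 8 highest and 8 lowest at day 2 against day 0, the 5 highest and 5 lowest in the other comparisons, those past 1.5-fold, those whose probe sets differ by over 0.6, Mrps18a, Mrps18b, Mrps18c and Mrps36; others were named after their values were seen. Of each list up to 4 genes furthest from 0 are named. The signal range background and the ETS core were added after seeing the data. Computation used Python 3.11.15, pandas 2.3.3 and numpy 2.4.6, and was tested on simulated data. Alternatives were other constants, filters, scalings and ways to represent a gene.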

Additional observations from a re-analysis of the deposited data

How the results depend on the processing

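Of 232 recomputed counts and medians 216 were stable. A count had to stay within 1.5 times, and a median within its standard error from the probe set SD. That standard error takes genes as independent and is wide for short lists, so the regulators' median counted as stable at 0.03 and −0.09. Counts at 2-fold were 0 in the main setting and had little room to move. Of 696 values of named members 686 were stable (within the probe set SD), and no member past 1.5-fold changed sign where it kept a probe set. Mrpl24, Mrpl49, Mrpl55, Mrps24 and Mrps34 have none without the suffix sets and so were not checked there. The median of the members stayed below 0 in every comparison under every alternative tried. Equal medians of cytosolic ribosomal protein genes gave 9 members at least 1.5-fold lower at day 2 against day 0 (11.8%, where 13.2% of all genes were) and a median of −0.17. At day 1 against day 0 they gave 5 lower, 0 higher and a median of −0.18. The mean over probe sets gave 3 lower at day 2 against day 0, 2 lower at day 1 against day 0 and 1 lower at day 2 against day 1. Leaving out probe sets with the suffix _x_at, _s_at or _a_at kept 62 members, with 3 at least 1.5-fold lower at day 2 against day 0, 1 of them (Mrpl47) also in the main count, and 1 (Mrpl38) at least 1.5-fold and 2-fold higher at day 2 against day 1. For day 2 against day 1 the smaller constant and quantile normalisation each gave 1 lower member, Mrpl55. The cytosolic median at day 2 was −0.00101 after quantile normalisation and −0.10 without those probe sets, which also moved the median of mitochondrial DNA maintenance and transcription from −0.24 to −0.13. Other filters on dim probe sets moved none of these values. The cause of each shift was not tested. No paired analysis was possible because each day has 1 array. At signals well above the constant, depth of signal limits little; the lack of replicates limits every difference.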
